A study of Arabidopsis thaliana with 8 samples.

Results

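A set of 407 cut positions on Arabidopsis MIRNA precursors carried tags in both libraries of fiery1 seedlings and none in any other genotype. They were chosen by counts: tags of 26 nt or longer were summed by precursor and start position, and a position was kept with 10 or more counts in both Fiery1 libraries and 0 in all Hyl1, Se and Col libraries. The choice took 407 of the 1549 positions that had such a tag in any library (26.3%), and 407 of the 802 positions with 10 or more counts in both Fiery1 libraries (50.7%). The counts that chose the positions are given below as a description with no test. Tags under 26 nt did not enter the rule, but they come from the same libraries and are also described with no test.

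The libraries were made with SPARE, a method for parallel analysis of RNA ends that sequences the 5′ ends of the fragments left when a MIRNA precursor is cut. There were 4 groups of 2 libraries each: Fiery1 -/-, Hyl1 -/- and Se -/- mutants and wild-type Col, the standard laboratory strain. All were 10-day-old seedlings grown in continuous light, with the tissue labelled seedling whole bud, and total RNA was used. The labels give no allele, and they do not say whether the 2 libraries of a genotype came from separate plants.

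In plants the nuclear RNase DCL1 cuts a MIRNA hairpin to release a duplex of the miRNA and its opposite strand, with the double-stranded RNA-binding protein HYL1 and the zinc-finger protein SE as partners. Most hairpins are cut first near the base and then near the loop, while MIR159 and MIR319 are cut from the loop towards the base in several steps. FIERY1 is a phosphatase that removes 3′-phosphoadenosine 5′-phosphate, and this compound inhibits the XRN 5′-to-3′ exoribonucleases, which degrade RNA fragments with a free 5′ phosphate, including the pieces that DCL1 leaves.

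Of the 407 positions, 56.0% lay downstream of the duplex, but 42.0% of the 119 whose scaled level exceeds 3 counts in every other library and 37.1% of the 35 with 100 or more counts in both Fiery1 libraries did so. At 217 of the 407 positions the counts were under 1% of those of the same precursor in Fiery1, and at 50 they were over 10%. The stretches below hold 4 of the precursors with many fiery1-only positions and show where these fell. Each capital is the first base of the tags at a fiery1-only position, and each stretch reads 5′ to 3′ on the strand of the precursor, from the TAIR10.1 genome of RefSeq. MIR779 (chr2:9560861-9561010, + strand) has 42 capitals in 150 bases, and its miR779.1 is bases 42 to 62. MIR159b (chr1:6220646-6220930, + strand) has 27 in 285 bases, with miR159b-3p at bases 168 to 188 and the opposite strand at bases 5 to 25. MIR167b (chr3:23406171-23406380, + strand) has 21 in 210 bases, with the miRNA strand at bases 7 to 27 and a predicted opposite strand at bases 77 to 99. MIR825 (chr2:11159771-11159890, + strand) has 17 in 120 bases, with miR825 at bases 4 to 24.
MIR779: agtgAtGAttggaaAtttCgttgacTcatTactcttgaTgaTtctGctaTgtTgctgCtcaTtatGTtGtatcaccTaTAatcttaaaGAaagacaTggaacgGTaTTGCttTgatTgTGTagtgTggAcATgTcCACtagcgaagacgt
MIR159b: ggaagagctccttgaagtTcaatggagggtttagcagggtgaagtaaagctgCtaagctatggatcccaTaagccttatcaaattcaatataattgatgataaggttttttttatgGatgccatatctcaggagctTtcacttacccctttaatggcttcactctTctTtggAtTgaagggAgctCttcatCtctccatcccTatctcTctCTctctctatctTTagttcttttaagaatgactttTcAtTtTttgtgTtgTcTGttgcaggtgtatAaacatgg
MIR167b: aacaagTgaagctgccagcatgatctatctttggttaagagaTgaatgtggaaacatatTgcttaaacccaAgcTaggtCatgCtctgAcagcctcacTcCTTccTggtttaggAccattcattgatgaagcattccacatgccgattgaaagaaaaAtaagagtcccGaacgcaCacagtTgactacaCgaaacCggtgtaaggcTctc
MIR825: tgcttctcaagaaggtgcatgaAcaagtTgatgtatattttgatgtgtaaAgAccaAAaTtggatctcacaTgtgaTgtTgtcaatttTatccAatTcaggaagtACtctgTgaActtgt

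A smaller class of 27 positions sat at or within 1 nt of the place where the 3′ end of the duplex is cut. The next 8 stretches of 49 bases show those of the 27 whose precursors had 10 or fewer counts in the other genotypes, again with the first base of the tags in capitals at base 25. The 3′ strand of the duplex ends at base 24 in all of them except MIR172e, where it ends at base 23. In MIR160b, MIR156e and MIR156g this strand is predicted. Their places are MIR395c (chr1:9367146-9367194, + strand), MIR395f (chr1:26273936-26273984, + strand), MIR172e (chr5:23988564-23988612, + strand) and MIR171a (chr3:19073518-19073566, + strand). The others are MIR160b (chr4:9889045-9889093, + strand), MIR162b (chr5:7740585-7740633, - strand), MIR156e (chr5:3867287-3867335, + strand) and MIR156g (chr2:8412499-8412547, - strand).
MIR395c: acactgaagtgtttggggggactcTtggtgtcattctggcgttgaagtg
MIR395f: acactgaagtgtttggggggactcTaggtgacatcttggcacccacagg
MIR172e: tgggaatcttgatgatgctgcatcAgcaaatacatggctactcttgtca
MIR171a: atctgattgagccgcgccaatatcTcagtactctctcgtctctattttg
MIR160b: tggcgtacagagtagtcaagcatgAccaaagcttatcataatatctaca
MIR162b: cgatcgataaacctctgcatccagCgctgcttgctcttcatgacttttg
MIR156e: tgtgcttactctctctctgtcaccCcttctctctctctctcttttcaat
MIR156g: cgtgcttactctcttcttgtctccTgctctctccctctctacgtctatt

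The libraries differed in depth, which sets what a count of 0 means. Tags of 26 nt or longer summed to 453388 and 795030 counts in the Fiery1 libraries, 45108 and 25753 in Hyl1, 41677 and 82159 in Se, and 56554 and 121429 in Col. At these depths 3 counts stood for 6.62 and 3.77 CPM, the library's counts scaled to 1e6, in Fiery1, 66.5 and 116 CPM in Hyl1, 72.0 and 36.5 CPM in Se, and 53.0 and 24.7 CPM in Col. The fiery1-only positions had a median mean CPM of 86.2 (quartiles 58.9 and 128, range 20.3 to 1010), within reach of those limits. Scaled to the depth of each library, the Fiery1 level would have given more than 3 counts at 277 and 119 of the 407 positions in the Hyl1 libraries, 258 and 375 in Se, and 330 and 404 in Col. It would have done so in all of the other 6 libraries at 119 positions and in none at 3. Scaled instead to the counts of the same precursor in each library, fewer positions exceeded 3 counts. They numbered 122 and 85 in Hyl1, 182 and 198 in Se, and 180 and 237 in Col. The precursor had no counts at all for 55 and 72 of the 407 positions in Hyl1, 43 and 54 in Se, and 73 and 39 in Col. The labels mention no molecular identifiers in these PCR libraries, so these limits cover counting error only.

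The same rule applied to the other genotypes gave far fewer positions from far fewer candidates. It kept 0 of 36 positions in Hyl1, 2 of 64 in Se (3.12%) and 0 of 49 in Col. The positions that Se held alone were on MIR156c (15415597 on chromosome 4, 77 and 155 counts) and MIR398c (4694891 on chromosome 5, 69 and 182 counts). The 2 libraries of a genotype also shared different shares of their positions. Of the positions with 10 or more counts in one library, 90.8% and 82.2% had 10 or more in the other library in Fiery1, against 24.2% and 40% in Hyl1, 31.8% and 35.8% in Se, and 64.5% and 37.4% in Col. How far this sharing between libraries set the number of fiery1-only positions was not tested.

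The 2 Fiery1 libraries shared the fiery1-only positions but not their levels, which bears on every count below. The ratio of library 2 to library 1 would be 0.81 on the log2 scale from depth alone. It lay under 0 at 203 of the 407 positions, with a median of -0.86 (0.551-fold), and over 2.5 at 87, with a median of 2.92 (7.59-fold). Only 68 positions lay between 0.5 and 1.5. Both clusters also occurred among the 395 other positions with 10 or more counts in both libraries. There the ratio lay under 0 at 76 (median -0.61), between 0.5 and 1.5 at 144, and over 2.5 at 61 (median 2.95). Across the 407 positions the log2 counts of the libraries gave a Pearson correlation of 0.23 and a Spearman correlation of 0.15, against 0.84 and 0.83 across the 395 other positions with 10 or more counts in both. The positions within each set share libraries and precursors, and the 2 sets cover different ranges of counts, so these correlations are a description only. Both kinds of ratio occurred side by side on 1 precursor: at neighbouring bases of MIR825, position 11159828 had 62 and 45 counts and position 11159827 had 17 and 174. Of the 23 precursors with 5 or more fiery1-only positions, 16 held at least 1 ratio under 0 and 1 over 2.5. The cause of the separate ratios was not tested, and neither was whether counts passed between the 2 Fiery1 libraries. The presence of a position in both of them is therefore not treated as independent support, and an SD over them has the same limit.

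**Figure D1:**
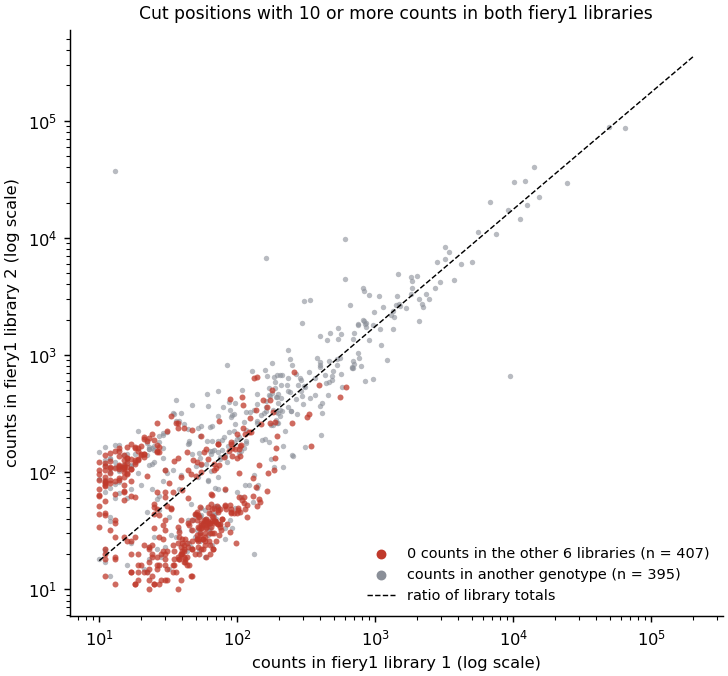
Counts at each cut position in Fiery1 library 1 (x axis) and Fiery1 library 2 (y axis), both on log scales, for the 407 fiery1-only positions (red) and the 395 positions with counts in another genotype (grey), with a dashed line at the ratio of library totals. Many red points form a cloud below the line and another above it at low counts, and few lie along it.

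Counts at the fiery1-only positions were small beside those of shared positions. Their medians were 40 and 49 counts, with ranges of 10 to 614 and 10 to 715, against medians of 112 and 251 at the other 395 positions. They summed to 23031 and 36682 counts, which is 5.08% and 4.61% of the Fiery1 libraries (4.85% ± 0.33, SD, n = 2). The other 395 positions held 85.7% and 93.2%. At 217 of the 407 positions (53.3%) the counts were under 1% of those of the same precursor, and at 50 they were over 10%.

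Tags at these positions were nearly all of full length. Of their counts, 91.1% belonged to tags of 51 nt, the longest in the libraries, and 372 positions had a single distinct tag. Among the 395 shared positions, 93.3% of counts belonged to such tags and 295 positions had a single distinct tag. No tag under 26 nt began at any of the 407 positions in any of the 8 libraries, although the libraries held 17401 and 26532 such counts in Fiery1, 545 and 10107 in Hyl1, 257836 and 428279 in Se, and 23612 and 5127 in Col. At 17 positions a tag had a value above 0 in the alignment hit column, whose meaning the sources do not state.

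The threshold divided positions that differed little. Just inside it were MIR398b position 4691212 with 23 and 10 counts, MIR173 position 8236330 with 10 and 34, and MIR400 position 11786076 with 37 and 10. Just outside it, with 9 counts in library 1 and 0 in the other genotypes, were MIR398c position 4694594 (140 counts in library 2), MIR169f position 4805691 (131) and MIR399c position 24962634 (130). A further 101 positions had 10 or more counts in both Fiery1 libraries and a single count elsewhere. The highest of them were MIR864 position 6740590 with 1085 and 1655 counts in Fiery1 and 1 in a Col library, MIR164b position 287720 with 844 and 594 in Fiery1 and 1 in an Se library, and MIR398c position 4694855 with 334 and 431 in Fiery1 and 1 in a Col library.

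Some fiery1-only positions lay beside counts of other genotypes. At 122 of the 407 another genotype had counts within 1 nt, and at 214 within 5 nt. At 34 positions an adjacent base held at least 10-fold more Fiery1 counts. The set is therefore fiery1-only base by base, and not always fiery1-only as a cut region.

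Relative to the duplex, 228 of the 407 positions (56.0%) were downstream of it, against 158 of the 395 shared positions (40%) and 31.8% of the bases in the same precursors. Bases were counted between the outermost tag positions of each precursor, so the tags themselves set this total. Tags far upstream lengthen it, and 36.5% of these bases were upstream. Another 62 of the 407 positions (15.2%) were inside the 3′ strand, where 69 of the shared positions (17.5%) and 6.55% of the bases lay. The base-proximal end, which is the base after the 3′ strand and 1 nt to either side, held 27 fiery1-only positions (6.63%), against 82 shared positions (20.8%) and 1.30% of the bases. The loop-proximal end, taken in the same way around the first base of the 3′ strand, held 6 (1.47%), against 20 of the shared positions (5.06%). The loop side, between the strands, held 35 (8.60%), against 40 (10.1%), and the region upstream held 32 (7.86%), against 14 (3.54%). These shares were not tested, and shared positions had the higher counts. With 100 or more counts required in both Fiery1 libraries, 37.1% of 35 fiery1-only positions were downstream, against 31.0% of 197 shared ones. Where the scaled level exceeds 3 counts in every other library, 42.0% of 119 fiery1-only positions were downstream, against 36.0% of 289 shared ones. At the base-proximal end the same limits gave 20% against 32.0%, and 11.8% against 25.6%.

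By counts the shares lay further apart, but the rule chose the sets by these same counts, and shared positions had the higher ones. What part of this difference the rule itself set was not tested. Downstream positions held 43.5% and 49.0% of the fiery1-only counts in the Fiery1 libraries, against 9.54% and 11% of the shared counts. The base-proximal end held 10.1% and 9.95% of the fiery1-only counts, against 71.2% and 70.0% of the shared counts. The share of positions downstream was 50.2% among the 203 with a log2 library ratio under 0, 89.5% among the 19 from 0 to 0.5, 63.2% among the 68 from 0.5 to 1.5, 53.3% among the 30 from 1.5 to 2.5, and 57.5% among the 87 over 2.5.

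**Figure D2:**
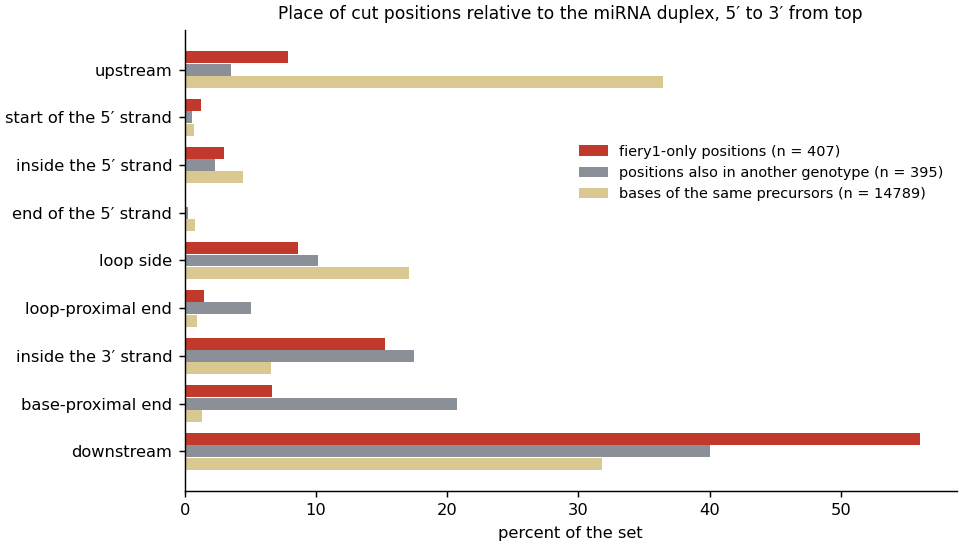
Percent of fiery1-only positions (red, 407), of positions also found in another genotype (grey, 395) and of bases between the outermost tags of the same precursors (sand, 14789) in each region, from upstream of the duplex at the top to downstream of it at the bottom. Downstream is the longest red bar at 56.0%, and the base-proximal end has 6.63% of red against 20.8% of grey.

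Downstream positions were spread over about 100 nt. Their distance from the base-proximal end was 2 to 107 nt with a median of 36.5 nt (quartiles 17 and 60.25), against a median of 40.5 nt (quartiles 22.25 and 59) for shared downstream positions. Of the 228, 64 were still within the annotated stem-loop and 164 beyond it, against 40 and 118 of the shared. Reverse transcription was primed within each precursor at places that the labels do not give, so the outer limit of these distances cannot be told apart from the place of the primer. Over the whole set, 212 positions (52.1%) were in the stem-loop, against 264 of the shared (66.8%). In the predicted fold of the stem-loops, 74.5% of those positions began at a paired base, against 75.8% of the shared positions and 73.3% of the stem-loop bases between the outermost tags. The tags began with T at 46.2% of the positions, A at 24.6%, C at 18.7% and G at 10.6%. Shared positions began with T at 41.5%, A at 22.8%, C at 27.8% and G at 7.85%. The bases between the outermost tags of the precursors were 35.2%, 27.7%, 18.8% and 18.3% in the same order.

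Neighbouring fiery1-only positions on a precursor were a median of 7 nt apart (334 distances, quartiles 3 and 18.75), against 2 nt for shared positions (326 distances). Adjacent bases made up 44 of the distances (13.2%), against 129 (39.6%) for the shared positions. With 100 or more counts they were 0% of 13 distances, against 45.8% of 142, and with a scaled level over 3 counts in every other library 6.41% of 78, against 45.8% of 227. All these distances are within 1 set and skip positions of the other set. With both sets pooled, the median distance was 2 nt, and adjacent bases made up 291 of 717 distances (40.6%). The distances within a set therefore cannot show how far a fiery1-only position lay from the nearest shared one. Distances of 19 to 23 nt, the range of a duplex length, numbered 16, against 14 for the shared. The longest unbroken run was 4 bases on MIR779, positions 9560967 to 9560970 on chromosome 2, with 181 and 164 counts. The next were 3 bases on MIR167b, 23406271 to 23406273 on chromosome 3, with 496 and 391 counts, and 2 more runs of 3 bases on MIR779. Shared positions had runs of up to 10 bases.

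**Figure D3:**
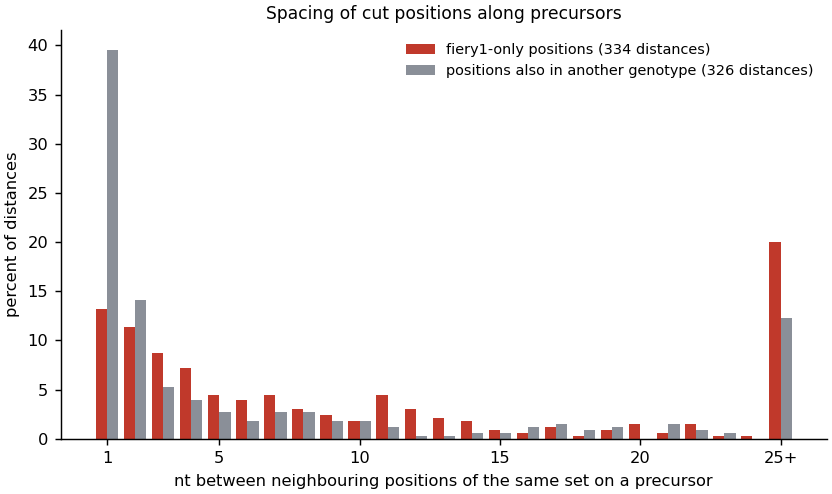
Percent of distances between neighbouring positions of the same set on a precursor, by distance in nt, for fiery1-only positions (red) and positions also found in another genotype (grey), with 25 nt and more pooled. Adjacent bases are 13.2% of the red distances and 39.6% of the grey. Positions of the other set are skipped, and with both sets pooled adjacent bases are 40.6% of the distances.

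The 407 positions lay on 73 of the 92 precursor entries with a tag of 26 nt or longer, in 39 families. They were uneven: 23 entries had 1 position, and 15 entries with 10 or more held 250 of the 407 (61.4%). The 12 precursors with the most positions are described next, with ties at 11 positions broken by summed Fiery1 counts, which left out MIR162a and MIR170, by the way their hairpins are cut and then by the targets of their miRNAs.

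MIR779, a non-conserved precursor, had the most, with 44 of its 58 positions at 10 or more counts in both Fiery1 libraries. These 44 summed to 2538 and 3386 counts, 7.6% and 6.95% of the precursor in Fiery1. The highest was position 9560910, inside the 3′ strand, with 614 and 529 counts. The exact loop-proximal end of miR779.1, position 9560902, had 153 and 414 counts and no count in any other genotype. The largest shared peak lay 57 nt before the base-proximal end, at 9560866, with 15319 and 22472 counts in Fiery1, 143 and 203 in Hyl1, 2808 and 3074 in Se, and 1959 and 3295 in Col. Its next base, 9560867, was fiery1-only with 108 and 441 counts. A further 28 of the 44 were downstream, up to 75 nt from the base-proximal end, where the counts per position stayed at 11 to 81 in library 1 and 11 to 228 in library 2. One position, 29 and 27 counts, lay 541 nt upstream, in an exon of AT2G07605 on the same strand.

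MIR159b gives a miRNA that targets MYB factors of the GAMYB class and is cut from the loop side. It had 28 fiery1-only positions of 97, with 1632 and 3525 counts, only 3.92% and 3.03% of the precursor. Its base-proximal end, 6220834, was shared, with 14092 and 40065 counts in Fiery1, 353 and 518 in Hyl1, 172 and 101 in Se, and 1209 and 1319 in Col. The highest fiery1-only position, 6220858, lay 24 nt downstream with 257 and 715 counts. The second, 6220811, was 2 nt before the loop-proximal end, with 133 and 636 counts. In all, 16 of the 28 were downstream.

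The precursors cut from base to loop included MIR167b, whose miRNA targets auxin response factors. It had 24 of 38 positions, with 1994 and 1852 counts, 30.2% and 24.2% of the precursor. The base-proximal end itself, 23406270, had 2202 and 2567 counts in Fiery1, 0 and 1 in Hyl1, 3 and 3 in Se, and 0 and 0 in Col. The next 3 bases were all fiery1-only, with 342 and 166, 73 and 173, and 81 and 52 counts. Position 23406276, 6 nt downstream, had 149 and 257. The first base of the miRNA strand, 23406177, had 98 and 25 counts. One upstream position lay in an exon of OTP86, with 17 and 26 counts.

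MIR164b, whose miRNA targets NAC factors of the CUC group, had 16 of 24 positions with 1238 and 1490 counts, 7.32% and 7.37% of the precursor. The highest by the lower CPM of the 2 libraries was position 287646 on the loop side with 173 and 262 counts. Position 287648, also on the loop side, had 89 and 418. Its shared base-proximal end, 287737, had 11152 and 14539 counts in Fiery1, 5 and 1 in Hyl1, 7 and 13 in Se, and 5 and 3 in Col. MIR158a had 14 of 15 positions, the largest share among the 12, with 761 and 969 counts, 44.3% and 30.2% of the precursor. Its base-proximal end, 3366348, was the 1 shared position at this level, with 847 and 1822 counts in Fiery1, 52 and 0 in Hyl1, 1 and 1 in Se, and 0 and 1 in Col. The whole MIR158a precursor had 448 counts in the other 6 libraries together, with 0 and 46 in Col. MIR164b had 1745, with 8 and 7 in Col, so a 0 in Col says little position by position at both precursors. MIR172e, whose miRNA targets AP2-type factors, had 12 of 16 positions with 499 and 1239 counts, 47.4% and 46.3% of the precursor. The whole precursor had 6 counts in the other 6 libraries together, so absence there is not detectable position by position at this depth. The position after its base-proximal end, 23988588, had 165 and 362 counts and was the highest.

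The nutrient-linked precursors were MIR398b, MIR398c, MIR408, MIR399c and MIR169k with MIR169l. MIR398 and MIR408 give miRNAs of copper homeostasis that target copper proteins such as superoxide dismutases and laccases. MIR398c in its unspliced form had 17 of 40 positions, with 1275 and 1575 counts (2.93% and 2.5%), led by 4694692 just upstream of the stem-loop with 330 and 313. MIR398b had 11 of 39, with 495 and 1241 counts (0.648% and 1.18%), and 9 of the 11 were downstream. MIR408 had 13 of 34, with 994 and 1738 counts (4.55% and 5.40%), and 11 of the 13 were downstream, led by 19319980 with 172 and 414. MIR399c, whose miRNA targets the PHO2 gene of phosphate balance, had 11 of 19, with 686 and 695 counts (4.16% and 1.75%). The joint entry of MIR169k and MIR169l, whose miRNAs target NF-YA factors, had 11 of 19 with 485 and 1067 counts (31.6% and 31.2%), led by 9875603 on the loop side with 187 and 270.

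The spliced form of MIR398c held the position with the highest lower CPM of the set, 4694792, at 388 and 556 counts. It is not fiery1-only in the genome: under the unspliced form the same base had 100 and 546 counts in Se and 1 in a Hyl1 library. Summed over forms, 3 positions of the set gained counts elsewhere, namely this one, MIR398c 4694717 (552 and 437 counts, then 1 in an Se library) and MIR156c 15415348 (33 and 48 counts, then 8 in a Hyl1 library). The other 403 of 406 distinct genome positions were unaffected, and 8 positions joined the set.

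MIR825 had 17 of 27 positions with 752 and 1382 counts, 16.8% and 15.4% of the precursor, and 16 of the 17 were downstream. All 17 lay in exons of AT2G26220 on the same strand, so tags from the MIR825 precursor and tags from that gene's RNA cannot be told apart. Across the set, 38 positions were in another annotated gene on the same strand, 31 of them in an exon. Besides AT2G26220 these were mainly 6 positions of MIR169a in exons of AT3G13404. Exons of MIR851 held 2 of the 3 positions of MIR771, and an exon of AT5G27650 held the only position of MIR5657.

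**Figure D4:**
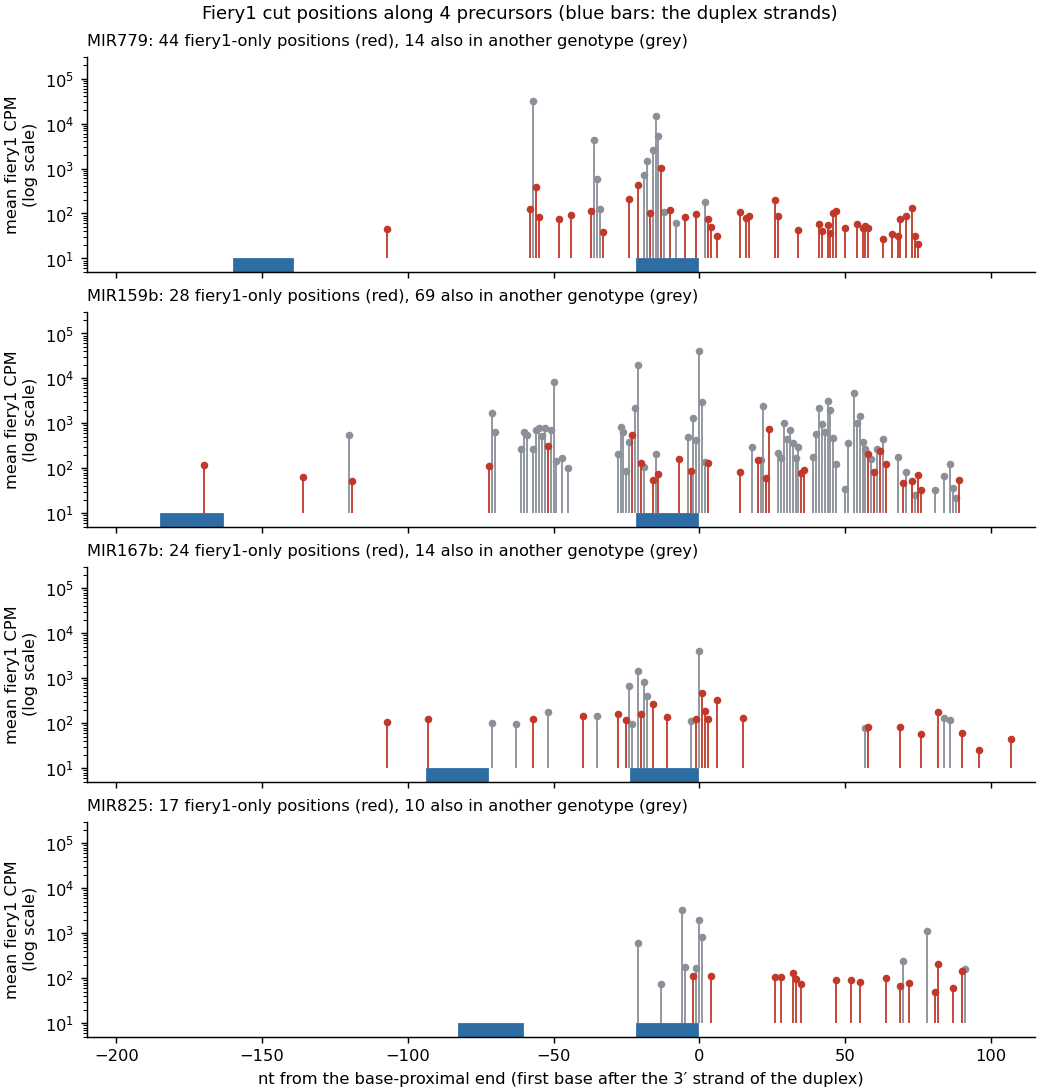
Mean Fiery1 CPM (log scale) of positions with 10 or more counts in both libraries along MIR779, MIR159b, MIR167b and MIR825, against distance in nt from the base-proximal end, with the duplex strands as blue bars. The 5′ strands of MIR779 and MIR825 and the 3′ strand of MIR167b are predicted. Red positions are fiery1-only and grey ones also occur in another genotype; positions farther upstream than the axis, 1 red each on MIR779 and MIR159b, 2 red on MIR167b and 2 grey on MIR779, are counted in the titles but not drawn.

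Precursors that had no counts at all in the other genotypes held 19 of the positions, on 12 precursors: MIR156e, MIR156g, MIR162b, MIR163, MIR171a, MIR390b, MIR395f, MIR447a, MIR447b, MIR5023, MIR5657 and MIR771. At these, a cut found in fiery1 and the detection of the precursor itself cannot be told apart. MIR771 and MIR5657 also had positions in exons of other genes on the same strand, given above, whose tags cannot be told apart from those of the precursor. In the base-proximal class, the 8 positions shown above, of 27, lay on precursors with 10 or fewer counts elsewhere, against 47 of all 407 (11.5%). MIR395f, whose miRNA targets ATP sulfurylases of sulfate assimilation, had all its Fiery1 counts, 179 and 506, at the base-proximal end. MIR395c, of the same family, had 182 and 324 counts there and 1 count elsewhere on the precursor in other genotypes. MIR171a, whose miRNA targets GRAS factors of the HAM group, had 44 and 105 counts there, and MIR162b, whose miRNA targets DCL1, had 16 and 111. MIR156e and MIR156g, whose miRNAs target SPL factors, had all their counts there, 27 and 16, and 28 and 12.

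Over the whole base-proximal class, members 1 nt off the end mostly lay beside counts of another genotype. The class includes the 8 positions on precursors with 10 or fewer counts elsewhere. Of the 27, 11 were exactly at the base-proximal end, 5 were 1 nt before it and 11 were 1 nt after it. Another genotype had counts within 1 nt at 13 of the 16 that were off by 1 nt and at 2 of the 11 that were exact. MIR393a, whose miRNA targets TIR1-type auxin receptors, had 321 and 297 counts at 16652227, 1 nt after its base-proximal end. MIR156a, of the SPL-targeting family, had its highest fiery1-only position farther on, 23 nt downstream at 10676446, with 249 and 265 counts.

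By family, 7 families had 5% or more of the fiery1-only counts in a Fiery1 library, and together they held 56.7% and 53.3%. MIR398 had 12.7% and 10.8% of the fiery1-only counts from 36 positions, against 31.1% and 23.6% of all Fiery1 counts. Without the 2 MIR398c positions that have counts elsewhere under the other form, and the 1 of MIR156c, it had 8.99% and 8.31%, below the 11.5% and 9.5% of MIR779. Its mean over the libraries, 11.7%, was 17.8% when the rule used Fiery1 library 1 alone and 21.0% with 100 or more counts. MIR779 had 11% and 9.23%, against 7.37% and 6.13%. MIR159 had 7.39% and 10.2%, against 9.26% and 14.7%, and MIR169 had 5.48% and 6.73%, against 13.0% and 13.6%. MIR398, MIR159 and MIR169 were below their share of all counts in both libraries.

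MIR167 had 10.2% and 5.99% of the fiery1-only counts, against 3.66% and 3.26% of all Fiery1 counts. MIR395 had 4.52% and 6.28%, against 0.915% and 0.967%, and MIR164 had 5.46% and 4.10%, against 3.74% and 2.55%. All 3 were above their share in both libraries, and 25.1% and 29.9% of the MIR395 counts lay at fiery1-only positions. These shares were not tested, nor was the part that the depth of each family in the other genotypes had in them.

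**Figure D5:**
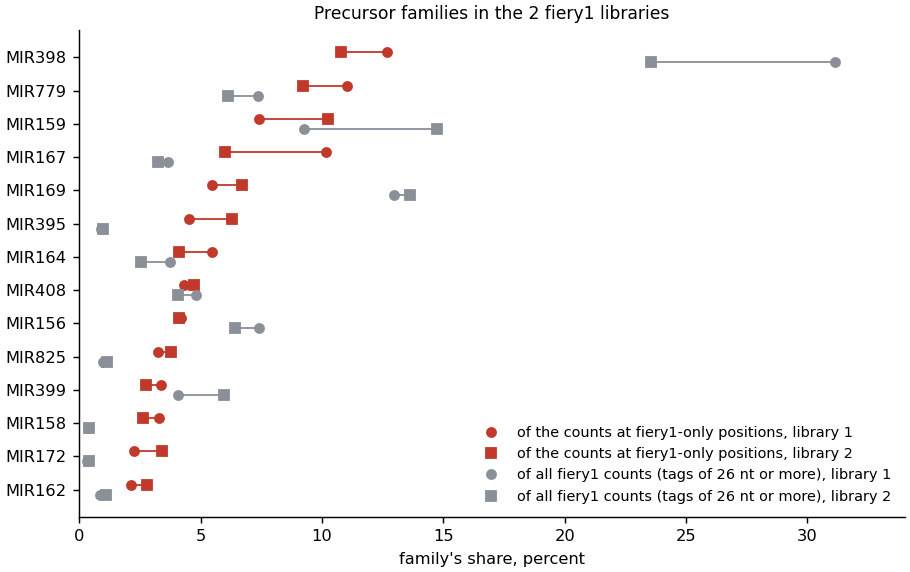
Share of the fiery1-only counts (red) and of all Fiery1 counts of tags of 26 nt or longer (grey) for the 14 families with the highest mean share of fiery1-only counts, as circles for library 1 and squares for library 2. MIR398, MIR159 and MIR169 have lower red than grey shares, and MIR167 and MIR395 have higher ones.

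Groups of families were read against the 50.7% of candidates that were fiery1-only over all precursors. Loop-to-base families had 101 of 248 positions (40.7%). Of these, MIR159 and MIR319, which are cut in sequence, had 34 of 114 (29.8%), with 28 of 97 from MIR159b, and the other 6 families had 67 of 134 (50%). Conserved families cut from base to loop had 198 of 400 (49.5%), and nutrient-responsive families had 81 of 187 (43.3%). The families that target genes of the silencing pathway itself had 24 of 36 (66.7%), with 11 of 18 from MIR162a and 10 of 13 from MIR403. Positions on 1 precursor share its depth, so these shares describe the sets and were not tested.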

How the data were processed

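Tags of MIRNA precursor fragments were read in 8 SPARE libraries. Per the labels' protocols, RNA was ligated (T4 RNA ligase), copied from precursor-specific primers and enriched by PCR. Adapters were trimmed with cutadapt and the TAIR10 build was used, per the submitters' processing notes. No aligner is named in the sources used here. The authors deposited raw counts per distinct tag, with no normalisation that the files show. There were 13 tags with a blank count, all in Fiery1, and they were left out.

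Counts were summed by precursor entry and position for tags of 26 nt or longer. CPM is relative to those sums. Tags were matched exactly to the TAIR10.1 genome with bwa 0.7.19-r1273, which placed 99.6% of counts. At 3 of the 407 positions, on spliced entries, the tags had no exact match. Stem-loops and miRNAs came from the RefSeq annotation. RNAfold 2.7.2 predicted the fold and, at 67 of the 407 positions, the 3′ strand of the duplex where none was annotated. The 5′ strand was predicted in the same way where only the 3′ strand was annotated, as on MIR779 and MIR825. Tables were made with Python 3.11.15, pandas 2.3.3 and numpy 2.4.6, and the scripts were checked on simulated data.

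The positions and family lists were chosen with earlier results of these data known. Text names were set by rule: the 12 precursors with most positions, the 15 positions with the highest lower CPM, and families with 5% of counts. Positions of other classes shown in sequence or as examples were chosen after their values were seen. No test was made, since the rule used all 8 libraries. Alternatives covered the count minimum, depth, tag length, neighbouring bases, entry forms and left-out libraries.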

Additional observations from a re-analysis of the deposited data

How the results depend on the processing

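No paired analysis was possible because no result comes from a test. The 407 positions numbered 263 at a minimum of 20 counts, 35 at 100, 119 where scaled Fiery1 levels exceeded 3 counts in every other library, and 241 with 0 counts within 2 nt elsewhere. Their share of Fiery1 counts was 4.85%, and 1.46% at 100 counts, 2.83% after scaling and 3.06% with 0 counts within 1 nt. The downstream share was 56.0%, and 37.1% at 100 counts, 42.0% after scaling and 46.3% weighted by counts. Adjacent distances within the set were 13.2%, and 0% at 100 counts and 6.41% after scaling. The MIR398 share was 11.7%, and 21.0% at 100 counts, 15.4% after scaling and 8.83% with 0 counts within 1 nt. Leaving out each library in turn gave 421 to 544 positions, 5.18% to 5.68% of counts, 54.9% to 59.0% downstream, 13.1% to 16.1% adjacent and 11.1% to 17.8% in MIR398. The rule applied to Hyl1 kept 1 position at a minimum of 5 counts and 0 at 10. The other 50 values stayed within 1.5 times for counts of positions, and within 1 SD or the 95% interval for shares. Alternatives added after seeing the data were tags with 0 in the hit column (391 positions), annotated 3′ strands, 10 counts in at least 1 Fiery1 library (610 positions), and leaving out positions that gain counts elsewhere on merging entry forms (404 positions), where the MIR398 share was 8.65%. The cause of these changes was not tested beyond the construction of each alternative.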
